A study of Mus musculus with 18 samples.

Results

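The genes described here are 35 markers of the non-parenchymal cells of the liver, followed in 7 mouse livers that carried 2 or 1 intact copies of Otub2. They were taken by symbol from the 55291 genes of the liver count table: 10 markers of Kupffer cells and other macrophages, 11 of sinusoidal endothelial cells, and 14 of hepatic stellate cells and fibroblasts. All 35 symbols were found. The study concerns Otub2, a deubiquitinating enzyme of the OTU family, and its part in the pancreatic beta cell. The 2 WT livers came from OTUB2 +/+ mice and the 5 HET livers from OTUB2 +/- mice. The pancreata, used here only to set the markers beside another organ, were 3 WT, 5 HET and 3 HOM (OTUB2 -/-). Of the pancreas donors WT 16, HET 9 and HET 11 were female and the others male. All mice were kept under ordinary conditions without treatment and killed by cervical dislocation. The sources used here do not give the sex of the liver donors or, for any animal, the strain, the age, the deleted part of Otub2 and the tissues that lack it. Whole tissue was extracted, so every level below is a share of the RNA of all cells together. Separate animals are not stated for the libraries of a group. The p-values measure only the spread between these libraries, which may be partly technical.

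Kupffer cells are the resident macrophages of the liver. They sit inside the sinusoids, the wide capillaries of the organ, and remove bacteria, aged red blood cells and debris from portal blood through scavenger, complement and lectin receptors. Liver sinusoidal endothelial cells form the fenestrated wall of these vessels and are themselves strong scavengers, which they do with stabilins and C-type lectins. Stellate cells lie between the endothelium and the hepatocytes, store vitamin A as retinyl esters, and become collagen-producing myofibroblasts when the liver is injured. Hepatocytes supply most of the RNA of a whole liver, so markers of the other cells are counted at low levels.

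The liver libraries held 155201 (WT 1) to 1686234 (HET 5) counts, 497810 over both WT and 3665748 over the 5 HET. At this depth 3 counts correspond to 19.3 CPM (counts per 1000000 of the library) in WT 1 and 1.78 CPM in HET 5. The libraries behaved as liver: 20 hepatocyte genes together took 153880 to 185414 CPM, and albumin, Alb, 11112 to 33895. Otub2 itself was near the limit of detection, with 1 count in the WT livers (3.22 ± 4.56 CPM, SD, n = 2) and 5 in the HET livers (1.80 ± 1.39, SD, n = 5). HET 2 and HET 3 carried more of 12 acute phase genes (30840 and 59641 CPM) than the other 5 livers (9065 to 18426 CPM). Red blood cell genes ran from 1530 CPM in HET 3 to 10848 in HET 1. Of 10 neutrophil markers 7 had 0 counts in all livers, S100a8 and Ly6g among them, and of 14 monocyte and dendritic cell markers 5, Ccr2, Itgax, Xcr1, Plac8 and Chil3. The 14 summed to 122 and 149 CPM in WT and to 61.4 to 177 in HET livers, mostly class II MHC genes. The 8 B cell markers, with Cd79a, Ms4a1, Jchain and Ebf1 at 0, summed to 40.9 and 110 CPM in WT and to 13.2 to 19.4 in HET livers. The part of these cells in the marker values was not tested.

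No marker passed the test between HET and WT livers. Of the 35, 16 passed the filter on low counts (5 macrophage, 6 endothelial and 5 stellate markers), and edgeR's quasi-likelihood test called 0 of these 16 with adjustment over all 4803 genes tested. It called 0.0% of all genes, the lowest adjusted p being 0.0681. Among the markers the adjusted p ran from 0.636 to 0.988. At an unadjusted p under 0.05 there were 0 of the 16 markers and 10.3% of all genes. DESeq2, the other tool run, called 0 of the 21 markers to which it gave an adjusted p, and 0.332% of all genes. Its unadjusted p was under 0.05 for 1 of 35 markers, Marco, and for 603 of 18545 genes. With no filter edgeR's unadjusted p was under 0.05 for 2 of 35, Marco and Timd4, and for 2353 of 18552 genes. Of the 16, 11 had a log2 fold change below 0, where 47.9% of all genes did. Their median was −0.16, beside 0.03 over all genes tested. The groups did not overlap in 2 of the 16, Csf1r and Stab1, with the HET livers lower in both. Of all genes tested 18.0% did not overlap, 11.1% with HET lower and 6.95% with HET higher. The standard errors of the 16 log2 fold changes ran from 0.34 (Ecm1) to 0.93 (Dcn), and for 13 of the 16 the 95% interval reached a difference of 2-fold in at least 1 direction, as the plot of fold changes shows.

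**Figure D1:**
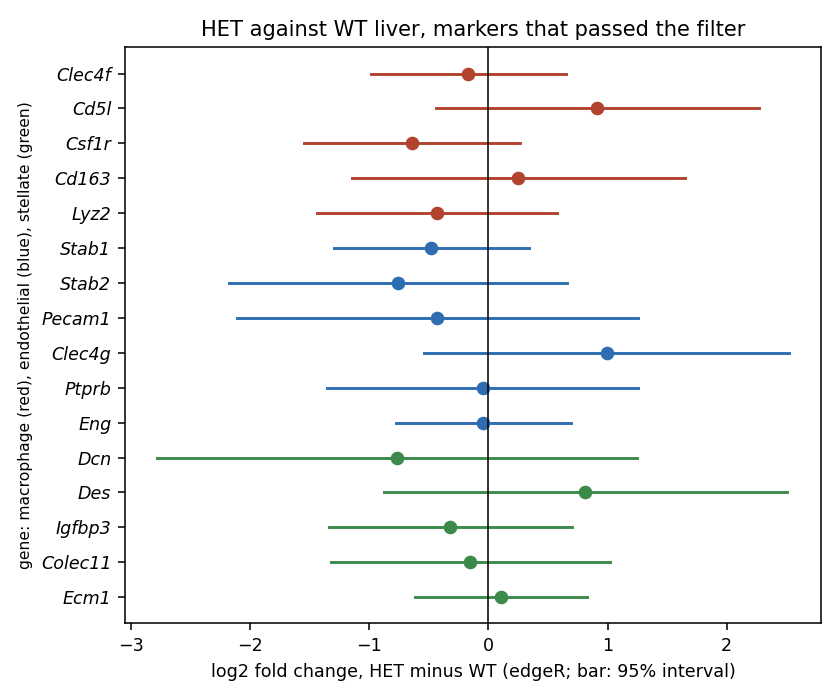
Log2 fold change (HET minus WT, edgeR; points) and its 95% interval (bars) for the 16 markers that passed the filter on low counts, coloured by cell class. All 16 intervals cover 0; the narrowest, of Ecm1, runs from −0.62 to 0.82, and Dcn, with the largest standard error, runs from −2.79 to 1.24.

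Summed over their class, the markers gave totals that overlapped between the 2 genotypes. In CPM, the 10 macrophage markers summed to 432 in WT 1 and 356 in WT 2, and to 367, 431, 278, 257 and 218 in HET 1 to HET 5. The HET livers thus spanned values from within the WT range to well under it. The 11 endothelial markers summed to 335 and 330 CPM in WT, and to 307, 248, 235, 193 and 352 in HET 1 to HET 5. HET 1 to HET 4 lay below both WT livers and HET 5 above them. The 14 stellate and fibroblast markers summed to 432 and 435 CPM in WT, and to 463, 316, 465, 472 and 340 in HET 1 to HET 5. Here 3 HET livers lay above both WT livers and 2 below. Group means were 394 ± 53.5 against 310 ± 86.8 CPM for macrophage, 332 ± 3.70 against 267 ± 62.7 for endothelial and 433 ± 2.26 against 411 ± 76.6 for stellate markers (WT against HET; SD, n = 2 and 5). The log2 ratios of these means, HET over WT, were −0.34, −0.32 and −0.075. A sum over chosen genes was given no test, and in whole tissue fewer cells of a type cannot be told apart from less of its RNA per cell. Each sum leaned on few genes: Clec4f made up 37.3% to 54.9% of the macrophage sum, Eng 29.8% to 51.4% of the endothelial sum and Ecm1 52.7% to 76.4% of the stellate sum. In GENCODE M21 on mm10 all 35 are protein-coding genes. Clec4f spans chr6:83644542-83656187 (minus strand), Eng chr2:32646595-32682669 (plus) and Ecm1 chr3:95734147-95739569 (minus).

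**Figure D2:**
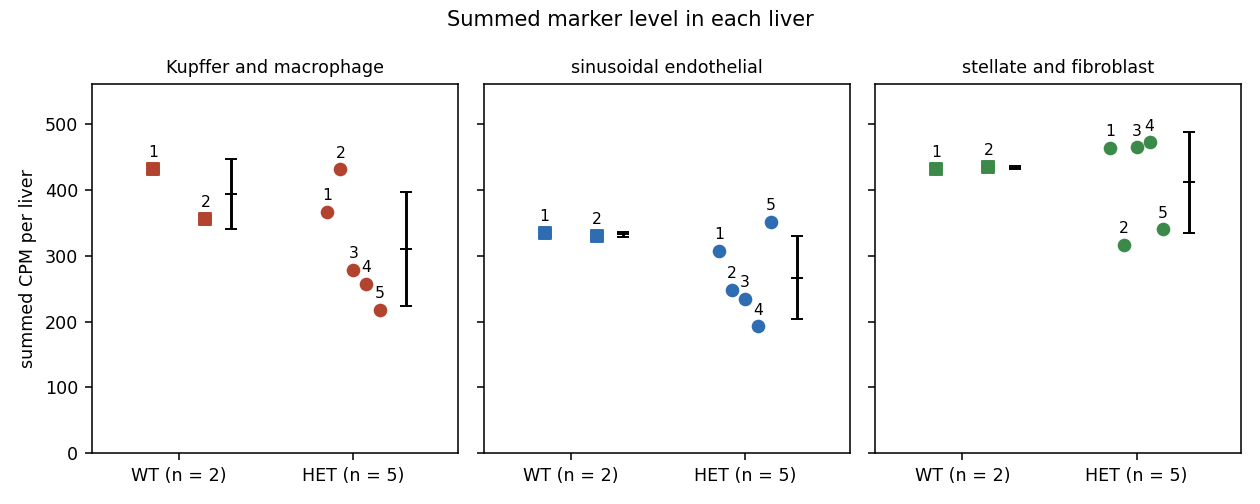
Summed CPM of the 3 marker classes (panels) in each liver; squares are WT and circles HET, numbers are replicate numbers, and bars at the side are the group mean and SD. HET 5 had the lowest macrophage sum (218 CPM) and the highest endothelial sum (352 CPM) of the 7 livers.

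Among the macrophage markers, Clec4f, a C-type lectin receptor of Kupffer cells, had the most counts. It had 161 and 196 CPM in WT 1 and WT 2, and 194, 219, 123, 117 and 87.8 in HET 1 to HET 5. The groups overlapped, with HET 2 above and 3 HET livers below both WT (log2 fold change −0.17 ± 0.39, SE; edgeR adjusted p = 0.913; −0.0055 without HET 5). Cd5l, a secreted scavenger-family protein that supports macrophage survival, had 58.0 and 11.7 CPM in WT and 61.4, 84.6, 43.8, 45.3 and 29.7 in HET. WT 2 was lower than every HET liver while WT 1 lay among them (log2 fold change 0.91 ± 0.64, SE; edgeR adjusted p = 0.657). Clec4f and Cd5l were both highest in HET 2 and, of the HET livers, both lowest in HET 5. Marco, a scavenger receptor for bacteria and particles, went the other way in WT 2. It had 1 count (6.44 CPM) in WT 1, 12 counts (35.03 CPM) in WT 2, and 3.72, 4.16, 6.58, 0 and 2.97 CPM in HET 1 to HET 5. WT 2 alone stood above all other livers. Marco did not pass the filter. In the fit without a filter its log2 fold change was −2.35 ± 0.93 (SE; edgeR adjusted p = 0.318, unadjusted p = 0.0117), and DESeq2 gave −2.47 ± 1.14 (SE; adjusted p = 0.597). Of the 13 WT counts 12 were in WT 2, and so the value rests on that liver.

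The stretches around the transcription starts of these 3 genes are shown because their proteins are close in role while their counts differed in pattern between WT 2 and the other livers. They are RefSeq sequences of build GRCm38.p6, 250 bases before to 50 after the start, written 5′ to 3′ on the gene's strand. Capitals mark matches on either strand to GAGGAA (the core bound by PU.1, the ETS factor of macrophages), TATAA (TATA box), CCAAT or GGGCGG (GC box). Clec4f lies at chr6:83656067-83656366 (minus strand), Cd5l at chr3:87357631-87357930 (plus) and Marco at chr1:120504975-120505274 (minus).
Clec4f: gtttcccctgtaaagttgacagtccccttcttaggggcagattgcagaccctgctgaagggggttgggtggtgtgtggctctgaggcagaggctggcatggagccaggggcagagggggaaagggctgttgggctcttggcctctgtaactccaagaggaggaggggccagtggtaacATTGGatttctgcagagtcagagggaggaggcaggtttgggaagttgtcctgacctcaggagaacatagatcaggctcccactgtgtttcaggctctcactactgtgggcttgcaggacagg
Cd5l: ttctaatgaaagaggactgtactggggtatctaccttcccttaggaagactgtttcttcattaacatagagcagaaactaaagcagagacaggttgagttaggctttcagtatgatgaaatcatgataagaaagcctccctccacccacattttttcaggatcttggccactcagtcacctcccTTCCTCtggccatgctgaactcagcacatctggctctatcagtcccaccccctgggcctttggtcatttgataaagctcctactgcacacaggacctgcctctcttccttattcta
Marco: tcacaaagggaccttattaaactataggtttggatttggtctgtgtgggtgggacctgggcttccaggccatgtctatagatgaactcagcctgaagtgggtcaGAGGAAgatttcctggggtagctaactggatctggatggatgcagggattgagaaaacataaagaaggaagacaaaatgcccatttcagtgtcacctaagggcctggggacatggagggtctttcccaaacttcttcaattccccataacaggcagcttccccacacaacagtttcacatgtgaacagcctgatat
Cd5l and Marco each held a GAGGAA match and Clec4f a CCAAT match. Promoter sequences were found for 24 of the 35 markers, 8 of them macrophage markers. GAGGAA was present in 4 of these 8 and in 7 of the 24, and in 28.3% of all 32851 promoters of the same length. The matches describe letters only.

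The other macrophage markers were counted sparsely. Csf1r, the receptor for the growth factor that macrophages depend on, had 83.8 and 49.6 CPM in WT and 37.2, 44.4, 30.7, 30.2 and 46.9 in HET. All 5 HET livers lay below both WT livers, HET 5 by less than 3 CPM below WT 2, and the difference did not pass (log2 fold change −0.64 ± 0.43, SE, interval −1.55 to 0.26; edgeR adjusted p = 0.636). Without WT 1 the log2 fold change of Csf1r was −0.18 and without WT 2 it was −1.03. The reading of Csf1r has a limit, since Hmgxb3, with 99 counts over the livers, overlaps it on the other strand and the use of strand is not given. Lyz2, the lysozyme of macrophages, had 38.7 and 43.8 CPM in WT and 24.2, 40.2, 24.1, 26.4 and 27.3 in HET, so that HET 2 alone of the HET livers reached the WT values. Reads of Lyz2 may be shared with its near-identical neighbour Lyz1. Cd163, the receptor that takes up haemoglobin bound to haptoglobin, had 38.7 and 14.6 CPM in WT and 40.9, 25.0, 28.5, 34.0 and 11.9 in HET, and the groups overlapped. Cd68, a lysosomal protein, had 6 counts in WT and 32 in HET (mean 15.8 and 8.77 CPM). Markers that a Kupffer cell is known for were among the scarcest: Adgre1, which encodes F4/80, had 2 counts in all 7 livers, Timd4, a receptor for phosphatidylserine on dying cells, had 3 in WT 1 and 1 in HET 5, and Vsig4, a complement receptor, had 0 in WT and 9 in HET. A WT count of 0 allows up to 6.03 CPM over the group (3 counts), above the 2.12 CPM of Vsig4 in HET, so no difference was detectable there. Without WT 2 the log2 fold changes of Cd5l and Cd163 were −0.036 and −0.44 in place of 0.91 and 0.25, and without WT 1 that of Cd5l was 2.36 (edgeR adjusted p = 0.430).

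**Figure D3:**
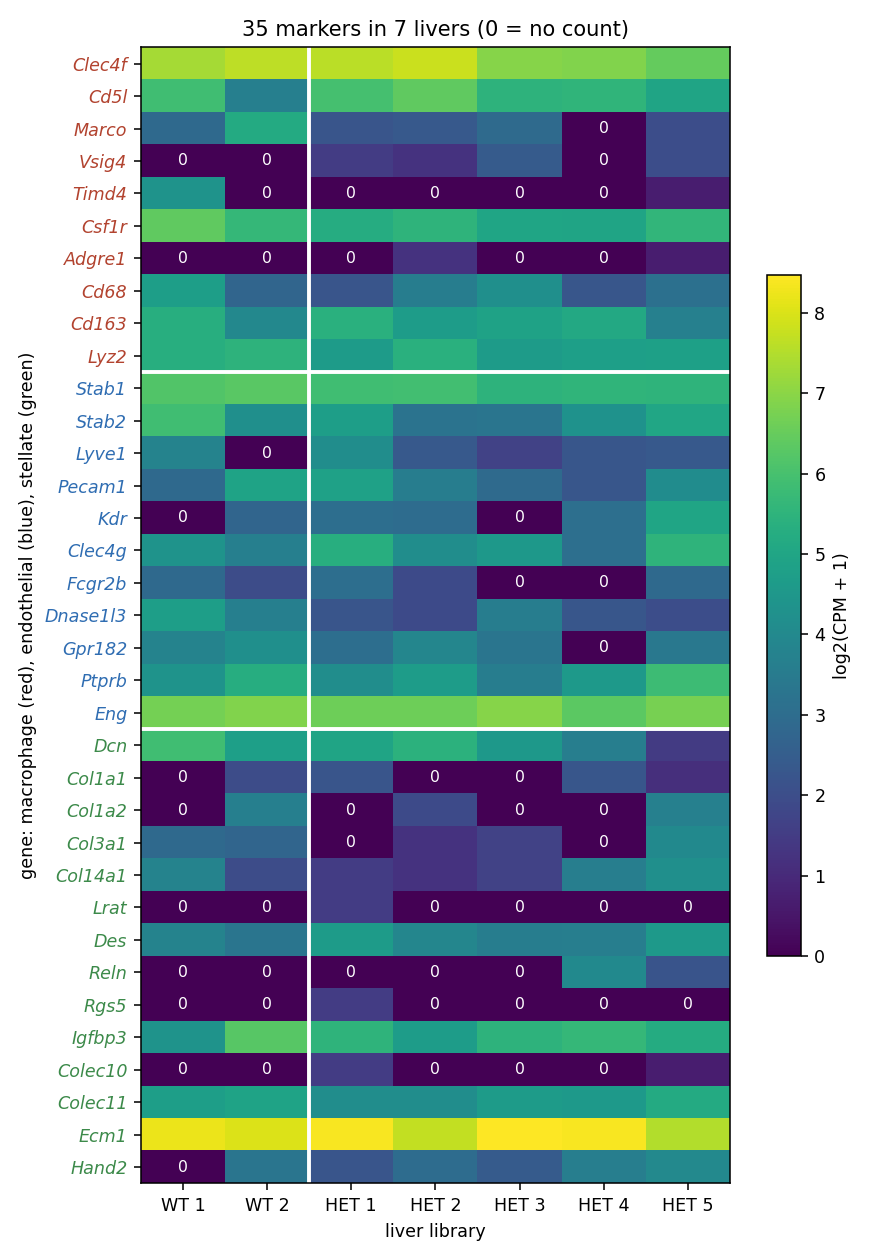
Level of the 35 markers (rows; macrophage red, endothelial blue, stellate green) in the 7 livers (columns), as log2(CPM + 1), with 0 written where a library had no count. Clec4f, Eng and Ecm1 are the brightest rows of their classes, while Adgre1, Lrat, Rgs5 and Colec10 hold at most 2 counts over all livers.

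Among the endothelial markers, Eng and Stab1 were the most evenly counted. Eng, endoglin, a co-receptor for TGF-beta family ligands, had 103 and 117 CPM in WT and 96.8, 97.0, 121, 79.3 and 105 in HET, with overlapping groups (log2 fold change −0.044 ± 0.35, SE, interval −0.78 to 0.69; edgeR adjusted p = 0.979). The sign of so small a value turned with some settings, for example to 0.11 with no filter. That setting moved the log2 fold changes over all genes by a median of 0.15. Stab1, the scavenger receptor stabilin-1, had 70.9 and 78.8 CPM in WT and 57.7, 59.6, 43.8, 45.3 and 45.1 in HET. As with Csf1r, all HET livers lay below both WT livers without passing the test (log2 fold change −0.48 ± 0.39, SE, interval −1.30 to 0.34; edgeR adjusted p = 0.701). Eng and Stab1 overlap genes on the other strand, Fpgs with 511 and Nt5dc2 with 39 counts over the livers, whose reads could not be told apart if strand was not counted. Stab2, the hyaluronan receptor stabilin-2, had 58.0 and 17.5 CPM in WT and 26.1, 8.32, 8.77, 18.9 and 31.4 in HET; WT 1 stood above all HET livers and WT 2 among them. Clec4g, the sinusoidal lectin LSECtin, had 19.3 and 11.7 CPM in WT and 39.1, 16.6, 21.9, 7.56 and 44.5 in HET. HET 1 and HET 5 were the high livers, and the groups overlapped (log2 fold change 0.99 ± 0.73, SE; edgeR adjusted p = 0.669; 0.57 without WT 2). Ptprb, the phosphatase VE-PTP, had 19.3 and 37.9 CPM in WT and 16.8, 25.0, 11.0, 22.7 and 55.2 in HET. Pecam1, a junction protein of all endothelium, had 6.44 and 29.2 CPM in WT and 27.9, 11.1, 6.58, 3.78 and 16.6 in HET. Both overlapped between the genotypes. Without WT 1 the log2 fold change of Stab2 was 0.29 in place of −0.76, and without WT 2 that of Pecam1 was 1.15 in place of −0.43 and that of Ptprb 0.57 in place of −0.050.

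The remaining 5 endothelial markers did not pass the filter. Dnase1l3, a secreted DNase, had 25.8 and 11.7 CPM in WT and 3.72, 2.77, 11.0, 3.78 and 2.97 in HET. All HET livers lay below both WT livers, on 4 counts in each WT liver (DESeq2 log2 fold change −1.82 ± 1.09, SE, adjusted p = 0.793). Gpr182, an endothelial receptor that binds chemokines, had 12.9 and 17.5 CPM in WT and 7.45, 13.9, 8.77, 0 and 9.49 in HET. Here the groups overlapped through HET 2, and Zbtb39, with 23 counts, overlaps Gpr182 on the other strand. Lyve1, a hyaluronan receptor shared with lymphatic vessels, had 2 counts in WT and 21 in HET (mean 6.44 and 6.21 CPM). Fcgr2b, the inhibitory Fc receptor that clears immune complexes, had 2 and 17 (mean 4.68 and 3.35 CPM).

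The stellate and fibroblast markers were led by Ecm1, a secreted matrix protein. It had 296 and 263 CPM in WT and 333, 205, 355, 336 and 179 in HET. The groups overlapped, with HET 2 and HET 5 below and the other 3 above both WT livers (log2 fold change 0.10 ± 0.34, SE, interval −0.62 to 0.82; edgeR adjusted p = 0.944; −0.033 without HET 3). Igfbp3, a carrier of insulin-like growth factors, had 19.3 and 75.9 CPM in WT and 44.7, 25.0, 43.8, 49.1 and 36.2 in HET. The 2 WT livers were the lowest and the highest of the 7, and the log2 fold change was 1.08 without WT 2 in place of −0.32. Colec11, a collectin of innate immunity, had 25.8 and 29.2 CPM in WT and 16.8, 16.6, 24.1, 22.7 and 34.99 in HET. Des, desmin, the intermediate filament of stellate and muscle cells, had 12.9 and 8.76 CPM in WT and 24.2, 13.9, 11.0, 11.3 and 22.5 in HET. Both overlapped, with HET 5 the highest liver for Colec11 and HET 1 for Des. Dcn, decorin, a proteoglycan of collagen fibres, had 58.0 and 26.3 CPM in WT and 29.8, 43.0, 21.9, 11.3 and 1.78 in HET. HET 5, the deepest library, held only 3 counts of Dcn (log2 fold change −0.77 ± 0.93, SE; edgeR adjusted p = 0.827). That log2 fold change was −0.34 without HET 5, −0.086 without WT 1 and −1.33 without WT 2.

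Of the 1603 liver counts of the stellate class 1016 were of Ecm1, so the class sum says little of its other genes. Several genes taken as signatures of stellate cells were at or near the limit of detection. Lrat, the enzyme that makes the retinyl esters stored by these cells, and Rgs5, a pericyte regulator of G protein signalling, each had 1 count in the 7 livers, in HET 1. Colec10, the partner collectin of Colec11, had 2 counts. Reln, the secreted protein reelin, had 4 counts in HET 4, 6 in HET 5 and 0 elsewhere. Hand2, a transcription factor of stellate cells, had 3 counts in WT and 37 in HET (mean 4.38 and 8.24 CPM). Its neighbour Hand2os1, with 15 counts, overlaps it on the other strand. Col1a1, Col1a2, Col3a1 and Col14a1 are the fibrillar and fibril-associated collagens of fibroblasts. They had 1, 4, 3 and 3 counts in WT and 5, 22, 28 and 36 in the deeper HET group. Their mean CPM were 1.46, 5.84, 6.14 and 7.90 in WT and 1.74, 2.93, 3.80 and 6.91 in HET.

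Of the 4 collagens 3, and several endothelial markers, came mainly from HET 5; Col1a1, with 2 of 5 HET counts there, did not. This library held 46.0% of all HET counts, yet it gave 26 of 28 HET counts of Col3a1 (92.9%, exact Clopper-Pearson interval at 95% confidence 76.5 to 99.1), 20 of 22 of Col1a2 (90.9%, 70.8 to 98.9) and 30 of 36 of Col14a1 (83.3%, 67.2 to 93.6). Kdr, the VEGF receptor of endothelial cells, behaved alike, with 52 of 63 (82.5%, 70.9 to 90.9), and Ptprb gave 93 of 131 (71.0%, 62.4 to 78.6). In CPM Kdr had 0 and 5.84 in WT, 7.45, 6.93, 0 and 7.56 in HET 1 to HET 4 and 30.8 in HET 5. Stab2, Clec4g, Colec11 and Hand2 also had intervals above the 46.0% share of depth. Those of 5 markers lay below it: Clec4f (29.8%, 25.8 to 34.0), Cd5l (28.4%, 21.9 to 35.7), Cd163 (24.4%, 15.6 to 35.1), Ecm1 (34.3%, 31.2 to 37.6) and Dcn (4.76%, 0.993 to 13.3). By class the share was above that of depth for 0 of 10 macrophage, 4 of 11 endothelial and 5 of 14 stellate markers, and below for 3, 0 and 2. These class totals include markers with fewer than 10 HET counts, such as Timd4 with 1, whose intervals are wide. Over the 28 markers with at least 10 HET counts, 9 lay above and 5 below. Of all 9405 genes with as many HET counts 29.1% lay above and 14.1% below, so shares unlike that of depth were common in HET 5 and these counts are near the background. These intervals cover counting error only and compare libraries, not genotypes. HET 5 also differed in markers outside the 3 classes: 11 bile duct genes summed to 209 CPM there and to 22.3 to 73.0 in the other 6 livers, and of 56 liver counts of Acta2, the smooth muscle actin of vessel walls and activated stellate cells, 53 were in HET 5. The part of these other cells, or of depth, in the values of HET 5 was not tested.

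**Figure D4:**
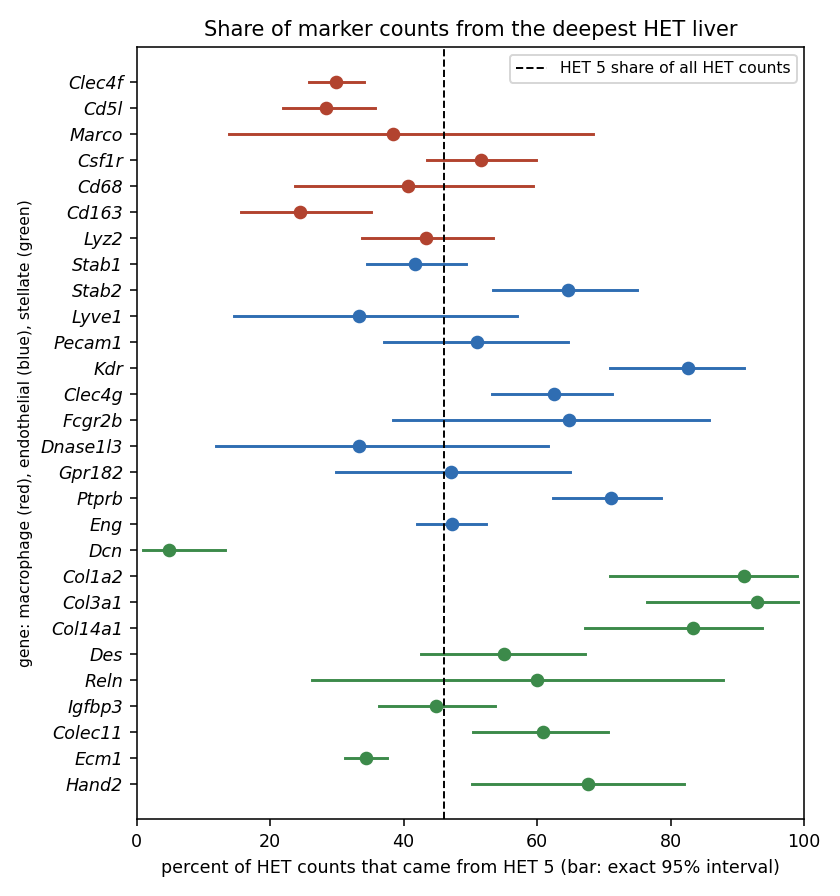
Percent of each marker's HET counts that came from HET 5 (points) with its exact 95% interval (bars), for the 28 markers with at least 10 HET counts; the dashed line is the 46.0% of all HET counts held by HET 5. Kdr and 3 collagen genes lie at 82.5% to 92.9%, and Dcn at 4.76%.

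The promoters of Kdr and Col3a1 are shown as those of the endothelial and the collagen gene with the largest share in HET 5. Their build, strand and capitals are as above. Kdr lies at chr5:75978406-75978705 (minus strand) and Col3a1 at chr1:45311288-45311587 (plus).
Kdr: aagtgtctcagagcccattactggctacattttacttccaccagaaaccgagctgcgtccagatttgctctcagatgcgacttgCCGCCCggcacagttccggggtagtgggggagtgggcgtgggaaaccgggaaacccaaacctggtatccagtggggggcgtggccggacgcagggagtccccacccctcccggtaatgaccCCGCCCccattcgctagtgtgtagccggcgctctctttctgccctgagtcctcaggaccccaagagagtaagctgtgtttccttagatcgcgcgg
Col3a1: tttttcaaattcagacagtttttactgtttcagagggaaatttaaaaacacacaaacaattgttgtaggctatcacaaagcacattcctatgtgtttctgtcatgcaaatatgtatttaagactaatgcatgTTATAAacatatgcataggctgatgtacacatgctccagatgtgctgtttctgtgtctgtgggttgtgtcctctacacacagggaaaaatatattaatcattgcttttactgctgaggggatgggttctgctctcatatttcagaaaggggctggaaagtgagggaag
Kdr held 2 GC box matches and no TATAA, and Col3a1 overlapping TATAA matches on the 2 strands and no GC box. The GC box was present in 35.7% and TATAA in 24.9% of all promoters, and they occurred in 8 and 7 of the 24 markers with a promoter sequence.

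How far the livers differed beyond counting noise varied from marker to marker. The variance of the counts among the 5 HET livers, divided by that of counting alone at these depths, was 0.816 for Stab1, 0.831 for Eng, 0.903 for Csf1r and 1.04 for Lyz2. For these 4 genes counting noise was as large as the whole spread of the HET livers. The ratio was 21.1 for Ecm1, 20.0 for Clec4f, 14.3 for Dcn, 8.73 for Kdr, 8.66 for Ptprb and 8.53 for Cd5l. High counts make excess spread easier to see, so the ratio can be read only beside genes counted to a like depth. Over the 1583 genes with 200 to 1000 HET counts, where Clec4f, Eng and Ecm1 lie, its median was 5.67 (quartiles 2.79 and 11.8), with Eng below and Clec4f and Ecm1 above the quartiles. Over the 2972 genes with 50 to 200 HET counts, where 14 markers lie, the median was 2.49 (quartiles 1.38 and 4.31). Dcn, Kdr, Ptprb, Cd5l, Clec4g (5.06) and Cd163 (4.80) lay above the upper quartile. Stab1, Csf1r, Lyz2, Des (1.32) and Igfbp3 (1.33) lay below the lower, and Stab2, Pecam1 and Colec11 between them. The genes named first were picked for the lowest and highest ratios among markers with at least 50 HET counts. Their places at the ends of the range follow in part from that choice and describe these 5 livers only.

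Longer lists of the same cell types gave no gene past the test either. Of 31 further macrophage genes 13 were tested, 8 of them with a log2 fold change below 0 (median −0.32). Their lowest p values belonged to Mertk, a receptor for dying cells (25.8 and 78.8 CPM in WT, 17.8 to 39.1 in HET; edgeR adjusted p = 0.463), C1qb and C1qa, chains of the complement component C1q (87.2 ± 40.7 against 47.5 ± 16.8, and 318 ± 49.3 against 212 ± 80.3 CPM), and Axl, a relative of Mertk (24.6 ± 1.71 against 8.69 ± 6.49). C1qa had 284 and 353 CPM in the WT livers and 147, 297, 263, 246 and 109 in HET 1 to HET 5, so that HET 2 lay between the WT livers. Single WT livers carried the differences of Mertk and C1qb. The log2 fold change of Mertk was −1.12, and −0.025 without WT 2, and that of C1qb was −0.72, and −0.097 without WT 1. Of 33 further endothelial genes that were counted, 10 were tested, 6 below 0 (median −0.20), with the lowest p for Tie1 and Igfbp7 (edgeR adjusted p = 0.568 and 0.720). Without WT 2 the log2 fold change of Tie1 was 0.15 in place of −1.28. Of 40 further stellate and matrix genes 9 were tested, 4 below 0 (median 0.20). The lowest p belonged to Tgfb1, the fibrogenic cytokine, with 45.1 and 40.9 CPM in WT and 11.2, 8.32, 13.2, 18.9 and 18.4 in HET. All HET values lay below both WT values, and the gene did not pass (log2 fold change −1.53 ± 0.56, SE; edgeR adjusted p = 0.379). Angptl6, an angiopoietin-like protein, had 12.9 and 14.6 CPM in WT and 22.2 to 42.8 in HET (edgeR adjusted p = 0.498). The medians stand beside one of 0.03 over all genes.

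Set beside pancreas, 11 of the 35 markers were counted in liver alone. The pancreas libraries were shallow for the most part, with 49502 to 1326541 counts, and 3 counts came to as much as 60.6 CPM. Clec4f, Marco, Timd4, Adgre1, Cd163, Clec4g, Fcgr2b, Gpr182, Lrat, Colec10 and Colec11 had 0 counts in all 11 pancreata. Of these Lrat, Adgre1, Colec10 and Timd4 had 1 to 4 counts over the 7 livers, too few to tell the organs apart. Cd5l and Vsig4 had 1 count each. Other markers were as abundant in pancreas libraries or more so. Stab1 had 14 to 320 counts in every pancreas, with 42.97 CPM in HET 11, 20.9 in HET 16 and 425 to 1968 elsewhere, where the livers held 43.8 to 78.8. Lyz2 was also counted in all 11 pancreata, from 3.02 CPM in HET 11 to 985 in WT 11. Des was counted in HET 11 (728 counts) and HET 16 (194 counts) and in no other pancreas, and Ecm1 181 and 157 in these libraries and at most 2 elsewhere. HET 11 and HET 16 were thus low in Stab1 and Lyz2 and high in Des and Ecm1 among the pancreata. They were also the deepest pancreata, with 1326541 and 670588 counts, where the others held 49502 to 205103. The part of depth in these values was not tested. Not all endothelial markers went with Stab1, since Eng was counted in 3 and Pecam1 in 2 of the 11 pancreata. Nor did all stellate markers go with Des and Ecm1. Reln and Col1a2 were highest in WT 16 (223 and 111 CPM). Both had 1.49 CPM in HET 16 and no counts in HET 11. Col3a1 and Rgs5 were highest in HET 16 (23.9 and 13.4 CPM). The 2 tissues were tabulated separately and no test was made between them.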

How the data were processed

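RNA of whole liver was made into bulk MARS-seq libraries, per the labels' protocols. The method reads transcripts from their 3′ end, and long transcripts gain no counts by length. Reads were processed with cutadapt and STAR on mm10, per the submitters' processing notes. Versions, counter, annotation and the use of strand and barcodes are not given in the sources used here. Values are counts of whole reads or molecules per gene, as deposited, which the authors call corrected without saying for what. 0 columns belonged to no sample.

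The 7 livers were fitted with genotype alone: edgeR 4.0.16 (R 4.3.3), filterByExpr by group, TMM, robust quasi-likelihood F test, Benjamini-Hochberg adjustment over 4803 genes, threshold 0.05. The common dispersion was 0.125 (5 residual degrees of freedom). Intervals of fold changes are at 95% confidence. CPM are scaled to library totals. The main fit was also run on simulated counts that gave every gene the common dispersion. That run cannot vouch for genes with another spread. DESeq2 1.42.0, other scalings and filters, a replicate block and each library left out were the alternatives. Gene positions and overlaps are from GENCODE M21 (mm10). The markers, gene lists and tests were chosen with earlier results of these data known. All 35 markers are named, with up to 4 genes of lowest p from each longer list, except for an item not reported here; Acta2 and the genes at 0 counts were named after their values were seen.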

Additional observations from a re-analysis of the deposited data

Results flagged for a closer look

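Among 38 values checked over the 5 HET livers (35 markers and 3 sums), 10 had 1 library far from the other 4. Chance gives about 1 in 20 for normally distributed values, but not for sparse counts. Of all 9405 genes with at least 10 HET counts 9.17% stood out in this way, and 7 of the 28 markers with as many. HET 5 stood high in Kdr (30.8 CPM, the others 0 to 7.56), Col1a2 (11.9, the others 0 to 2.77) and Col3a1 (15.4, the others 0 to 2.19). HET 1 stood high in Lyve1 (16.8 CPM on 9 counts, the others 2.19 to 4.16), HET 2 in Lyz2 (40.2, the others 24.1 to 27.3), HET 3 in Dnase1l3 (11.0 on 5 counts, the others 2.77 to 3.78) and HET 4 in Reln (15.1 on 4 counts, the others 0 to 3.56). Timd4 (0.593 CPM in HET 5), Lrat and Rgs5 (1.86 CPM each in HET 1) stood apart on 1 count, with 0 in the other 4 livers, which such a gene does by construction. The spread of Lyz2 among HET livers was 1.04 times that of counting alone.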

How the results depend on the processing

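No marker and no gene of the 3 longer lists passed under any alternative run. Over all genes, edgeR called 0 in the reported fit, 57 with no filter, 6 at a mean of at least 10 CPM, 41 with the replicate number as a block and 0 to 6 with a library left out (4 without WT 1, 1 without HET 1 and 6 without HET 5), and DESeq2 called 22; the cause was not tested. The numbers do not pair the livers by any label. Deviations of same-numbered livers correlated at −0.025 and −0.026, and the block left 1 residual degree of freedom. Of 231 alternative values over the 16 tested markers 216 kept their direction, and the lowest adjusted p was 0.304 (Cd5l, block). With the block the log2 fold changes of Clec4f and Dcn were 0.33 and 0.045, and with no filter those of Ptprb and Eng 0.10 and 0.11. Leaving out the filter moved the log2 fold changes over all genes by a median of 0.15. Leaving out a library turned the sign of some: Cd5l ran from −0.036 to 2.36, Cd163 from −0.44 to 1.06, Stab2 from −1.52 to 0.29, Pecam1 from −0.89 to 1.15, Ptprb from −0.29 to 0.57, Eng from −0.15 to 0.044, Igfbp3 from −0.78 to 1.08, Ecm1 from −0.033 to 0.29, Tie1 from −1.75 to 0.15 and Nrp1 from −0.21 to 2.94. The log2 ratios of the sums ran from −0.49 to −0.20 (macrophage), −0.44 to −0.22 (endothelial) and −0.13 to 0.0059 (stellate) with a library left out. They were −0.25, −0.24 and 0.016 with TMM scaling, and −0.41, −0.41 and −0.25 without the most abundant gene of each class, beside −0.34, −0.32 and −0.075 as reported and a spread within genotypes of 0.37, 0.30 and 0.25 (pooled SD, log2). The total of 497810 WT counts limits every comparison.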
